A study of Mus musculus with 196 samples.

Results

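The Ifitm family, short for interferon-induced transmembrane proteins, was followed in the skin of backcross mice through 5 of its genes, Ifitm1, Ifitm2, Ifitm3, Ifitm5 and Ifitm6, out of 18820 genes measured. They were chosen by family name, by having a probe set that names them alone, and by their measured levels in tail, anagen and non-anagen dorsal arrays. The comparisons of tail with dorsal skin are therefore given as a description with no test. Ifitm7 and Ifitm10 also had such a probe set but were not among the listed genes, and they appear below with the wider family. Where a gene had several probe sets, the one with the highest mean was used. The mice were a backcross: F1 daughters of male Mus spretus and FVB/N dams were bred to FVB/N sires, and 196 arrays were made from 100 untreated offspring at 8 weeks of age. The arrays held tail skin (97 arrays, 48 female and 49 male), shaved dorsal skin in anagen, when hair grows (14 arrays, 8 female and 6 male), and shaved dorsal skin not in anagen (85 arrays, 41 female and 44 male). Each array is 1 mouse, every mouse carries its own mix of FVB/N and Mus spretus alleles, and 96 mice gave both tissues.

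Values are log2 expression after RMA (robust multi-array average), on which a difference of 1 is a factor of 2. Array medians ran between 5.67 and 6.03, no array went against its sex label, and no arrays were identical. All anagen arrays were in batch 1 with 75 of the non-anagen arrays, and tail arrays were in batches 3 and 4, which means that tissue and batch cannot be told apart. A list of 12 genes of the hair shaft and inner root sheath had a mean between 5.01 and 6.25 in arrays labelled non-anagen, while the anagen arrays ran between 6.09 and 11.9 on the same mean. The precision is limited by the number of arrays.

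IFITM proteins are small membrane proteins. Ifitm1, Ifitm2 and Ifitm3 are induced by interferons and hold back many enveloped viruses by hindering the fusion of virus and cell membranes, Ifitm1 mainly at the cell surface and Ifitm2 and Ifitm3 mainly in endosomes. Ifitm5, also called BRIL, is best known from osteoblasts, where it takes part in mineralisation and where mutations in people cause a form of brittle bone disease. Ifitm6 is a less studied member found in mice. In RefSeq (GRCm38.p6) the 5 genes are neighbours in one run on chromosome 7, in the order Ifitm5, Ifitm2, Ifitm1, Ifitm3 and Ifitm6.

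The starts of 4 of these genes are shown because Ifitm6 stood apart from its relatives in the arrays and because Ifitm2 and Ifitm3 varied together. Each runs from 150 bases before the annotated start to 30 bases after it, 5′ to 3′ on the gene's own strand, from RefSeq (GRCm38.p6). Capitals mark matches to GAAA followed after 2 bases of any kind by GAAA (the core of the interferon-stimulated response element, ISRE), TTCNNNGAA (the interferon-gamma activated site) and TATAAA (the TATA box), searched on both strands. The Ifitm3 and Ifitm2 regions, chr7:141010715-141010894 and chr7:140955932-140956111, are on the minus strand, as is that of Ifitm6, chr7:141016863-141017042. The Ifitm1 region, chr7:140967926-140968105, is on the plus strand.
Ifitm3: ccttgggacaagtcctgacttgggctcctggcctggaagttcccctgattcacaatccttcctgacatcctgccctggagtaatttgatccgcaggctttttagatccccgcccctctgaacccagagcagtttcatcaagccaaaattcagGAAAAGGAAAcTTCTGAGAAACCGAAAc
Ifitm2: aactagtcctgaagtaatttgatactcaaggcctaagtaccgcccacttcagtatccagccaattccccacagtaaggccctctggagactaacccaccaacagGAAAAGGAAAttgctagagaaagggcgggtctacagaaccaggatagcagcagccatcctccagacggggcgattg
Ifitm1: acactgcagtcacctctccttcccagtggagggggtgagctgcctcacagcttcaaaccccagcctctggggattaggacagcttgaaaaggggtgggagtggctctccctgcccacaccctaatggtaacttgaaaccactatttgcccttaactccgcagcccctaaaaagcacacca
Ifitm6: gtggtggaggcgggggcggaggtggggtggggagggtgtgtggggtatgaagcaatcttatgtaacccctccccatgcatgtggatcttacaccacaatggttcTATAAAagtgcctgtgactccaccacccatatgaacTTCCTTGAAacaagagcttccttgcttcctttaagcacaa

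Within the 300 bases from 250 before to 50 after the start, the ISRE core occurred 2 times in Ifitm3 and 1 time in Ifitm2, with the same letters GAAAAGGAAA in both genes, and had no match in Ifitm1, Ifitm5 or Ifitm6. Of all 32851 promoters searched, 3.44% held it. The matches of Ifitm3 began after the annotated start, at positions 3 and 20, and that of Ifitm2 before it, at position -46. TTCNNNGAA, present in 8.30% of promoters, matched in Ifitm3, where it overlaps the second ISRE core match, and in Ifitm6. TATAAA, present in 13.6% of promoters, matched in Ifitm6 at position -46, and on the reverse strand of Ifitm2 at position -175, outside the printed stretch. Ifitm5 held only GGGCGG, the GC box, which is not capitalised here and is present in 35.7% of promoters. The GC box also matched in Ifitm2, Ifitm3 and Ifitm6. These matches describe letters in a window and no binding was measured.

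Ifitm6 had the widest spread between sites of the 5 genes. It was between 3.76 and 5.44 in tail skin, with a median of 4.31, between 6.55 and 10.6 in anagen dorsal skin, with a median of 9.97, and between 8.78 and 11.4 in non-anagen dorsal skin, with a median of 10.1. Every tail array was below every dorsal array, with a gap of 3.34 between the highest tail and the lowest non-anagen array and 1.11 between the highest tail and the lowest anagen array. How many of all genes separate tail from dorsal arrays in this way is not given here. The means were 4.34 ± 0.32 in tail skin (SD, n = 97), 9.42 ± 1.11 in anagen dorsal skin (SD, n = 14) and 10.12 ± 0.58 in non-anagen dorsal skin (SD, n = 85). The fitted difference was -5.78 (SE 0.07) for tail against non-anagen dorsal skin and -5.09 (SE 0.14) for tail against anagen dorsal skin. The tail level lay close to that of Y-linked genes in female tails, which carry no Y chromosome, where Eif2s3y averaged 3.20, Uty 3.30 and Kdm5d 4.20. With the tail this close to the low end of the arrays, the differences of Ifitm6 can be read only as lower bounds. In a whole piece of skin, fewer cells of a type and less RNA per cell cannot be told apart.

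Ifitm1, Ifitm2 and Ifitm3 were also lower in tail skin, by far less. Ifitm1, the cell-surface member, was between 5.70 and 7.68 in tail skin (median 6.19), between 6.10 and 8.01 in anagen dorsal skin (median 6.73) and between 6.26 and 8.13 in non-anagen dorsal skin (median 7.19). These ranges overlapped, although 95 of 97 tails were below the non-anagen median. Ifitm3, an endosomal member, was between 9.22 and 11.01 in tail skin (median 9.99), between 9.88 and 11.4 in anagen dorsal skin (median 10.8) and between 9.95 and 11.7 in non-anagen dorsal skin (median 10.9). Its ranges overlapped as well, with 96 of 97 tails below the non-anagen median. Ifitm2, its close relative, was between 10.1 and 11.1 in tail skin (median 10.6), between 10.4 and 11.6 in anagen dorsal skin (median 10.9) and between 10.52 and 11.71 in non-anagen dorsal skin (median 11.15), and all 97 tails were below the non-anagen median. Against non-anagen dorsal skin the tail differences were -0.997 for Ifitm1 (SE 0.05), -0.84 for Ifitm3 (SE 0.04) and -0.53 for Ifitm2 (SE 0.03). Against anagen dorsal skin they were -0.66 (SE 0.10), -0.64 (SE 0.09) and -0.37 (SE 0.05) for the same genes, and both sets of differences share the tail arrays. In males alone, with 6 anagen arrays, the difference of Ifitm1 from anagen dorsal skin was -1.10.

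Ifitm5, the osteoblast member, was at one level in all 3 groups. It averaged 5.43 ± 0.19 in tail skin, 5.41 ± 0.22 in anagen dorsal skin and 5.45 ± 0.27 in non-anagen dorsal skin (SD, n = 97, 14 and 85), with a tail difference of -0.02 (SE 0.03) from non-anagen and 0.01 (SE 0.06) from anagen dorsal skin. As a background for these descriptions, 87.3% of all genes passed an adjusted p of 0.05 between tail and non-anagen dorsal skin, 43.8% higher and 43.5% lower in tail skin, and 2.02% were lower in tail skin by at least 2 times as well. Between tail and anagen dorsal skin the shares were 75.9% and 1.68%. The median difference of all genes between tail and non-anagen dorsal skin was -0.00087, and shifting all arrays to one median moved it to -0.14. The order of the differences, with Ifitm6 first and then Ifitm1, Ifitm3 and Ifitm2, compares each probe set with itself between groups.

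**Figure D1:**
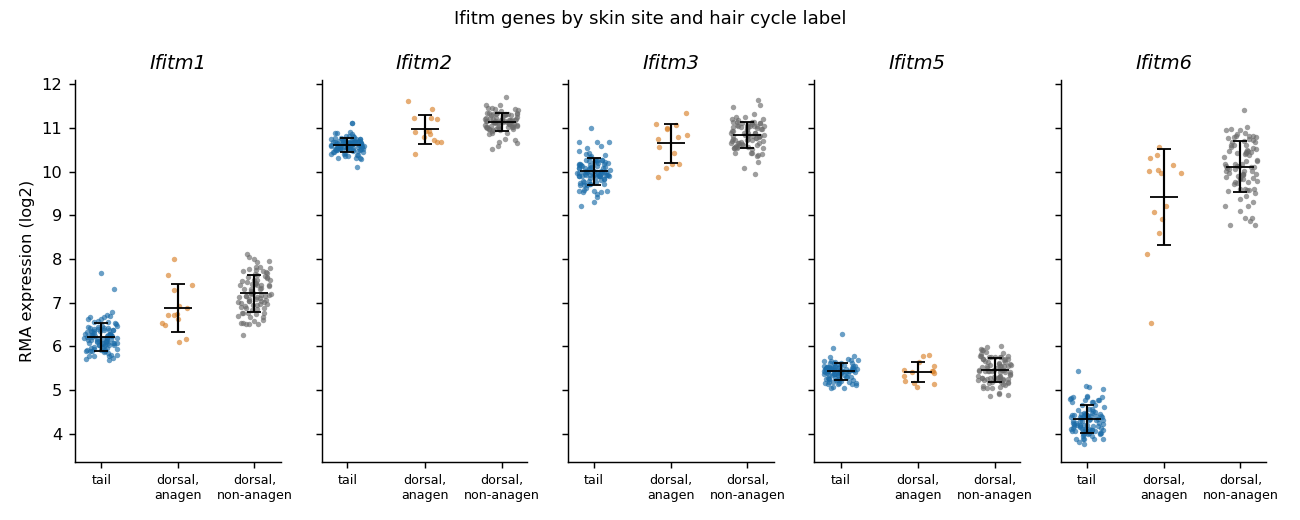
RMA expression on a log2 axis for the 5 Ifitm genes, with 1 point per array, in tail skin (97 arrays), anagen dorsal skin (14 arrays) and non-anagen dorsal skin (85 arrays), and black bars for the mean and SD. For Ifitm6 the tail points lie between 3.76 and 5.44, below all dorsal points, while the 3 groups of the other genes overlap.

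Paired by mouse, the same arrays describe the same differences and add no separate support. For Ifitm6 the direction in every mouse follows from the separate ranges above. The share of all genes with such counts is not given here. In the 82 mice with tail and non-anagen dorsal skin, the tail was lower for Ifitm6 in 82, for Ifitm1, Ifitm2 and Ifitm3 in 79 each, and for Ifitm5 in 42. In the 14 mice with anagen dorsal skin, the tail was lower for Ifitm6 in 14, for Ifitm2 in 13, for Ifitm1 and Ifitm3 in 12 each, and for Ifitm5 in 9. The mean difference within a mouse for Ifitm6 was -5.19 ± 1.10 with anagen dorsal skin (SD, n = 14) and -5.76 ± 0.56 with non-anagen dorsal skin (SD, n = 82). The smallest single difference, -2.03, belonged to an anagen mouse.

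**Figure D2:**
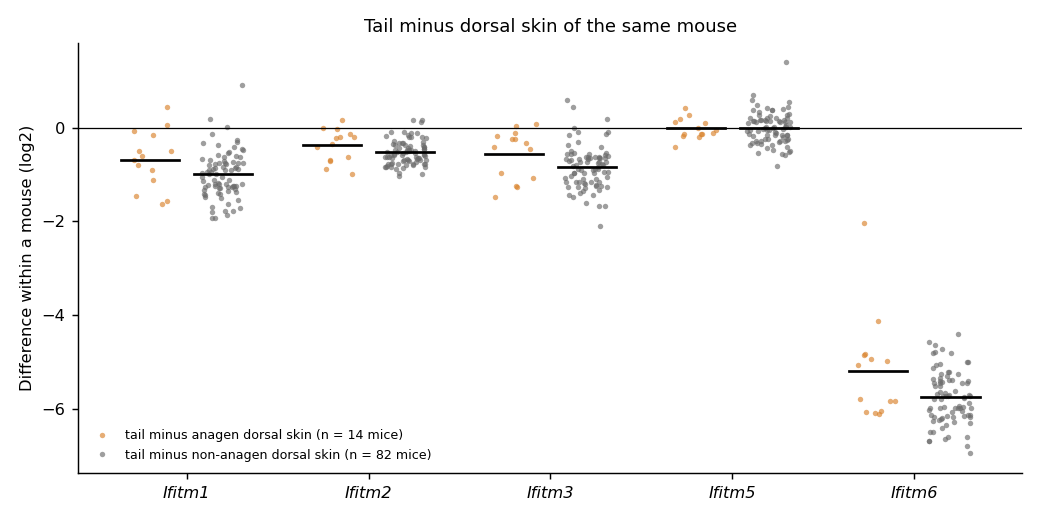
Tail minus dorsal expression of the same mouse on the log2 scale, with 1 point per mouse and a black line at the mean, for mice with anagen (orange, 14) and non-anagen (grey, 82) dorsal skin. Ifitm6 is below 0 in every mouse, between -6.95 and -2.03, and Ifitm5 is spread around 0.

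Other probe sets of Ifitm1 and Ifitm2 showed the same order of tissues. The other Ifitm1 probe set averaged 5.41 in tail skin, 6.43 in anagen dorsal skin and 6.602 in non-anagen dorsal skin. Of the other Ifitm2 probe sets, one averaged 10.29 in tail skin, 10.73 in anagen dorsal skin and 10.88 in non-anagen dorsal skin, and the other 9.56 in tail skin, 10.01 in anagen dorsal skin and 10.19 in non-anagen dorsal skin. Ifitm1, Ifitm2 and Ifitm3 are alike in sequence, and how far their probes bind each other's transcripts, or differ in binding FVB/N and Mus spretus transcripts, was not tested.

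Within dorsal skin, Ifitm6 was the only one of the 5 genes past the threshold between anagen and non-anagen arrays. The dorsal arrays of this comparison were also in view when the genes were chosen, so its p-values are not independent of that choice. The anagen minus non-anagen difference was -0.68 (SE 0.19, 95% interval -1.06 to -0.30, limma adjusted p = 0.0134 over all genes). Of all genes, 7.7% passed the threshold, 4.11% higher and 3.59% lower in anagen. Sorted by level, the 14 anagen arrays had Ifitm6 at 6.55, 8.12, 8.60, 8.92, 9.07, 9.21, 9.97, 9.97, 10.01, 10.04, 10.15, 10.31, 10.39 and 10.58. The 3 lowest of these were below every non-anagen array, whose lowest was 8.78, and 10 of the 14 were below the non-anagen median. The call rested on the lowest arrays: leaving out the male at 6.55 gave -0.46 (adjusted p = 0.163), and leaving out the female at 8.12 gave -0.58 (adjusted p = 0.076). Leaving out the 5 arrays least like their groups, among which 2 were anagen, gave -0.42 (adjusted p = 0.204).

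The anagen arrays with the lowest Ifitm6 were high in hair genes. The arrays at 6.55, 8.12 and 8.60 had means of 11.93, 11.90 and 11.05 over the 12 hair shaft and inner root sheath genes, which ran from 6.09 to 11.93 in the anagen arrays. Over the 14 anagen arrays Pearson's r between Ifitm6 and this mean was -0.56 (permutation p = 0.0341, adjusted p = 0.0987 over 255 relations of members and lists). Without the 2 arrays farthest from the median of Ifitm6, r was -0.20, so the relation rested on those arrays. In the 85 non-anagen arrays r was -0.09. Other lists had an r of larger size with Ifitm6 over the 14 anagen arrays and passed. These were the interferon ligands, receptors and signal proteins (0.91, adjusted p = 0.000811), the T cell genes (0.80, adjusted p = 0.00966), the neighbours of the Ifitm run (0.77, adjusted p = 0.00966), the Langerhans and dendritic cell genes (0.66, adjusted p = 0.045) and the keratinocyte genes (0.64, adjusted p = 0.0476). Without the same 2 arrays these were 0.73, 0.50, 0.63, 0.08 and 0.25 in that order, and rho, at 0.71, 0.45, 0.80, 0.42 and 0.44, passed for the first and the third (adjusted p = 0.0339 and 0.00827).

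**Figure D3:**
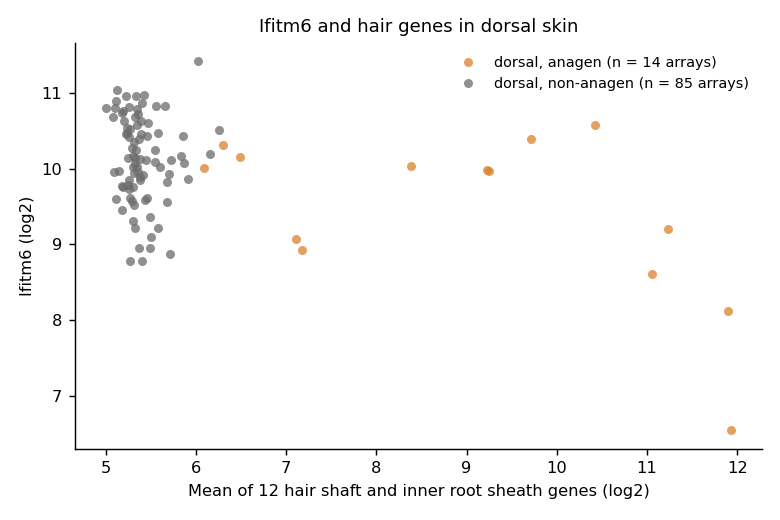
Ifitm6 on a log2 axis against the mean of the 12 hair genes (shaft and inner root sheath, log2) in the 14 anagen (orange) and 85 non-anagen (grey) dorsal arrays, with 1 point per array. The 2 lowest Ifitm6 arrays, at 6.55 and 8.12, have the highest hair gene means, 11.93 and 11.90.

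The relatives did not pass the threshold in that comparison. Ifitm1 differed by -0.32 between anagen and non-anagen arrays (95% interval -0.55 to -0.09, adjusted p = 0.0702), Ifitm2 by -0.18 (-0.31 to -0.04, adjusted p = 0.0975), Ifitm3 by -0.19 (-0.37 to 0.00321, adjusted p = 0.266) and Ifitm5 by -0.04 (-0.19 to 0.11, adjusted p = 0.848). Whether Ifitm6 differed from its relatives in this was not tested. Without the male of mouse number 1086, whose Ifitm1 of 8.01 was the highest of the anagen arrays, Ifitm1 (-0.39, adjusted p = 0.0179) and Ifitm2 (-0.23, adjusted p = 0.0186) were called as well. Ifitm1 was also called without mouse number 1082 (-0.36, adjusted p = 0.0374) and Ifitm2 without mouse number 1057 (-0.21, adjusted p = 0.0325). Among females alone Ifitm1 (-0.47, adjusted p = 0.0489) and Ifitm2 (-0.31, adjusted p = 0.0223) were called lower in anagen and Ifitm6 (-0.50, adjusted p = 0.252) was not, with 8 anagen females. Among males alone, with 6 anagen arrays, Ifitm6 differed by -0.91 (adjusted p = 0.112) and no member was called. Between tails of mice with anagen and tails of mice with non-anagen dorsal skin, 0% of all genes and 0 of the 5 members passed in limma. At an unadjusted p under 0.05 there were 0 members, and Ifitm6 differed by -0.10 (95% interval -0.28 to 0.08, adjusted p = 1). These tails were grouped by the dorsal label and not by their own hair state. With Ifitm6 close to the low end in tail skin, a drop like the dorsal one might not show there.

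Ifitm1 was lower in females than in males in dorsal skin. In non-anagen dorsal skin Ifitm1 was between 6.26 and 7.81 in females (median 7.01) and between 6.602 and 8.128 in males (median 7.39), ranges that overlap. The female minus male difference was -0.33 (SE 0.08, 95% interval -0.50 to -0.17, limma adjusted p = 0.0039), where 12.3% of all genes passed, 6.19% higher and 6.11% lower in females. The other Ifitm1 probe set differed by -0.40 between the sex means. In tail skin Ifitm1 was between 5.73 and 7.68 in females (median 6.25) and between 5.70 and 6.80 in males (median 6.11), a difference of 0.17 (SE 0.06) that did not pass (adjusted p = 0.128), among 2.84% of all genes that did.

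The sex difference of Ifitm1 itself differed between the tissues. Tail minus dorsal, it was 0.50 (SE 0.10, 95% interval 0.30 to 0.70, limma adjusted p = 0.000432 for the interaction), where 9.09% of all genes passed and 4.46% were called with a positive sign. Several cell type lists moved as well. Of 10 endothelium genes, 9 were called lower in females than males in dorsal skin (median difference -0.43) and all 10 were called in the interaction (median 0.54), with Pecam1, a junction protein of endothelium, at 0.67 (adjusted p = 5.34e-05). Of 10 fibroblast genes, 4 were called lower in females in dorsal skin (median -0.40) and 6 were called with a positive sign in the interaction. Of 9 sebaceous gland genes, 4 were called lower in females in dorsal skin (median -0.38) and 1 was called with a positive sign in the interaction. After adjustment for sex, Ifitm1 in non-anagen dorsal skin had an r of 0.37 with the sebaceous gland mean (adjusted p = 0.00501 over 255 relations) and of 0.29 with the fibroblast mean (adjusted p = 0.0353), and 0.19 with the endothelium mean did not pass (adjusted p = 0.181). In tail skin r was 0.46 with endothelium (adjusted p = 0.000142), 0.28 with fibroblast genes (adjusted p = 0.0271) and 0.13 with sebaceous gland genes (adjusted p = 0.376). By rho, the relation with fibroblast genes did not pass in dorsal skin (0.23, permutation adjusted p = 0.116) or in tail skin (0.22, permutation adjusted p = 0.11). The part of these cell types in the Ifitm1 result was not tested.

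**Figure D4:**
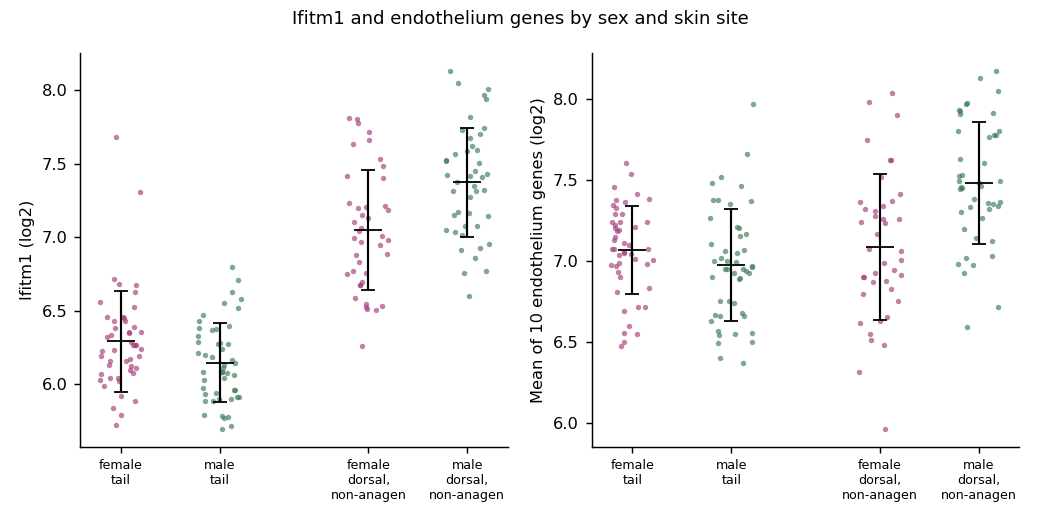
Ifitm1 (left) and the mean of 10 endothelium genes (right) on log2 axes, with 1 point per array and black bars for the mean and SD, in female and male tail skin and female and male non-anagen dorsal skin. Ifitm1 averages 6.29 in female and 6.15 in male tail skin, and 7.05 in female and 7.37 in male dorsal skin, and the endothelium mean has the same order of the sexes in each tissue.

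Of the other members, Ifitm5 passed in dorsal skin, at 0.17 higher in females (SE 0.06, adjusted p = 0.0376), with means of 5.54 ± 0.26 in 41 females and 5.37 ± 0.27 in 44 males. That call was lost when arrays were shifted to one median (adjusted p = 0.107), after quantile normalization (adjusted p = 0.113) and in batches 1 and 4 alone (adjusted p = 0.0662). Ifitm2, Ifitm3 and Ifitm6 did not pass in dorsal skin, with differences of 0.01, -0.03 and 0.06. In tail skin 0 of 5 members passed in limma, with 3 at an unadjusted p under 0.05, and the lowest adjusted p was 0.0806, for Ifitm3 at 0.18 (SE 0.06). The interaction was past the threshold for Ifitm1 alone of the 5 genes.

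Ifitm1, Ifitm2 and Ifitm3 varied together from mouse to mouse in both tissues. Values were adjusted for sex and batch within a tissue, and p-values are two-sided from 100000 permutations, adjusted over the 20 relations of pairs and tissues, of which 8 passed. The smallest p that these permutations can give is 1e-05. In 97 tails Pearson's r was 0.81 for Ifitm2 with Ifitm3, 0.73 for Ifitm1 with Ifitm2 and 0.64 for Ifitm1 with Ifitm3 (each adjusted p = 5e-05). Only 0.00531% of all genes, which is Ifitm3 itself, had an r with Ifitm2 as high as Ifitm3 did. In 85 non-anagen dorsal arrays the same pairs had r of 0.66 (adjusted p = 5e-05), 0.44 (adjusted p = 0.00016) and 0.41 (adjusted p = 0.0004). Spearman's rho for Ifitm2 with Ifitm3 was 0.76 in the tails and 0.67 in the dorsal arrays, and without the 2 farthest arrays r was 0.77 and 0.61. In males alone in dorsal skin, Ifitm1 with Ifitm2 (r 0.32) and Ifitm1 with Ifitm3 (r 0.32) were not called (permutation adjusted p = 0.0911 each). Ifitm1 with Ifitm6 had an r of 0.34 there, at the same adjusted p.

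Ifitm6 was loosely tied to its relatives. In tail skin Ifitm6 lay close to the low end of the arrays, which limits its r there. Its r with Ifitm1 was 0.27 in tail skin and 0.29 in non-anagen dorsal skin (adjusted p = 0.0185 each), and those with Ifitm2, Ifitm3 and Ifitm5 did not pass in either tissue, with r between -0.13 and 0.19. The call of Ifitm1 with Ifitm6 did not hold in either tissue within one sex, with adjusted p of 0.0697 in females and 0.18 in males in tail skin and of 0.238 and 0.0911 in dorsal skin. In dorsal skin it was also lost with values not adjusted for sex and batch (adjusted p = 0.0662) and in batches 1 and 4 alone (adjusted p = 0.129). After arrays were shifted to one median, Ifitm2 passed with Ifitm6 in tail skin (r 0.28, adjusted p = 0.0126). In dorsal skin 14.7% of all genes had an r with Ifitm6 at least as high as that of Ifitm1. No pair with Ifitm5 passed, with r between -0.18 and 0.06. One of the other Ifitm2 probe sets, the one with the lowest mean, had an r with Ifitm6 of 0.41 in tail arrays and 0.47 in dorsal arrays, against 0.19 and 0.17 for the probe set used, so the tie of Ifitm2 to Ifitm6 depends on the probe set. Whether the 3 Ifitm2 probe sets lie at one gene or at copies of it was not tested.

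Tail and dorsal levels of one mouse were weakly related at most, and the low tail level of Ifitm6 limits its r. Over 82 mice with non-anagen dorsal skin, Pearson's r between tail and dorsal Ifitm6 was 0.30 and Spearman's rho 0.28 (permutation p = 0.00677 and 0.0109, adjusted p = 0.0694 over all genes for r), and r was 0.30 without the 2 farthest mice. Of all genes 8.96% passed, and the median r was 0.08. Ifitm1 (0.19), Ifitm2 (0.07), Ifitm3 (-0.16) and Ifitm5 (-0.05) did not pass, with adjusted p between 0.363 and 0.862, and their rho was 0.27, 0.05, -0.08 and 0.04.

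The genes most like each member, taken as the highest Pearson's r over arrays of one tissue, are given as a description. Arrays share sample composition and inherited alleles. In 85 non-anagen dorsal arrays the 5 genes most like Ifitm6 were Urah (0.79), Ano9 (0.75), Tollip (0.68), Pdzk1ip1 (0.68) and Cd9 (0.66). Urah, an enzyme of urate breakdown, Ano9, a membrane scramblase, and Tollip, an adaptor of Toll-like receptor signalling, lie on chromosome 7 at 14, 4 and 37 protein-coding genes from Ifitm6. Neither Urah (9.18 in tail, 9.24 in anagen dorsal skin and 9.46 in non-anagen dorsal skin) nor Tollip (9.65, 8.88 and 9.02 in the same order) had the tail gap of Ifitm6. Of the 69 other genes measured within 40 genes on each side of Ifitm6, 9 had an r of at least 0.4 with it, as had 6.07% of all genes, while their median r was -0.01, and Pkp3, 2 genes away, had 0.57. In tail skin the highest r of Ifitm6 was 0.52, with Acbd7, and Urah was the fifth at 0.46.

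Across all 196 arrays, where the gap between tail and dorsal skin sets most of the variation, the genes most like Ifitm6 were Pkib, Krt77, Mrgprb3, F830045P16Rik and Clca3a1, with r between 0.976 and 0.982. Krt77, an epidermal and sweat duct keratin, averaged 6.596 in tail skin, 12.36 in anagen dorsal skin and 12.61 in non-anagen dorsal skin. Mrgprb3, a receptor of the Mas-related family, averaged 4.79 in tail skin, 9.17 in anagen dorsal skin and 9.76 in non-anagen dorsal skin. None of these lies within the Ifitm run.

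For Ifitm3 in dorsal skin the most alike genes were Sprr1a (0.71), a cornified envelope protein, Lgals9 (0.70), a lectin induced by interferon, Fcer1g (0.69), a signalling chain of immune receptors, Tmem176a (0.69) and Ly6e (0.68), an interferon-induced surface protein. Ly6e also led for Ifitm2 (0.75), before Ubl7 (0.74), Alg3 (0.71), Pfn1 (0.69) and Slc35a4 (0.67). For Ifitm1 they were Brk1 (0.54), Proser2 (0.53), Pcp4l1 (0.52), Wif1 (0.51), a secreted Wnt inhibitor, and Kcnmb1 (0.50), a potassium channel subunit of smooth muscle. In tail skin Ifitm3 was followed by Ifitm2, Rsu1 (0.69), Anxa5 (0.69), Fcer1g (0.68) and Cd37 (0.68), a leukocyte tetraspanin. Ifitm2 was followed there by Ifitm3, Ifitm1, Igfbp7 (0.66), Fxyd5 (0.65) and Rsu1 (0.64). Ifitm1 was followed by Ifitm2, Ifitm3, Tspan4 (0.59), Pcp4l1 (0.56) and Ap2a2 (0.55), and Tspan4 and Ap2a2 lie 30 and 32 genes from Ifitm6 on chromosome 7.

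Ifitm5 in tail skin was most like Bglap (0.58, and 0.50 without the 2 farthest arrays), which encodes osteocalcin, a protein of osteoblasts. Bglap averaged 6.06 in tail skin, 5.59 in anagen dorsal skin and 5.84 in non-anagen dorsal skin. Averaged over 8 osteoblast and osteocyte genes, expression had an r of 0.38 with Ifitm5 in tail skin (adjusted p = 0.00871 over 255 relations), which was 0.14 without the 2 farthest arrays, and 0.08 in non-anagen dorsal skin. By r, the other lists that passed with Ifitm5 in tail skin were negative. These were fibroblast (-0.42), endothelium (-0.35), monocyte and macrophage (-0.34), interferon-stimulated (-0.33) and mast cell genes (-0.29). Without the 2 farthest arrays they were between -0.44 and -0.36. The neighbours of the Ifitm run had a positive r that did not pass (0.24, adjusted p = 0.0641) and a rho that did (0.40, permutation adjusted p = 0.00102). By rho, the osteoblast and osteocyte genes did not pass (0.23, permutation adjusted p = 0.091). In dorsal skin the genes most like Ifitm5 were Begain, Npff, Mir186, 2310067E19Rik and Trib3, with r between 0.39 and 0.46, and 0.0112% of all genes reached 0.4.

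The means of gene lists gave each member a profile over arrays of one tissue, and 70 of the 255 relations passed an adjusted p of 0.05. The share of all genes that pass with these list means is not given, so this count cannot be read as particular to the members. Ifitm3 in non-anagen dorsal arrays rose with the mean of 10 Langerhans and dendritic cell genes (r 0.62, rho 0.57), with that of 32 interferon-stimulated genes (r 0.55, rho 0.45) and with that of 9 T cell genes (r 0.42, rho 0.42). It also passed with interferon ligands, receptors and signal proteins (0.42), monocyte and macrophage (0.41), sebaceous gland (0.39) and fibroblast genes (0.33). Neutrophil genes (0.31), endothelium (0.31) and other relatives of the Ifitm genes (0.27) passed as well. By rho, the signal proteins and these relatives did not pass. By r, Ifitm2 (0.22), Ifitm1 (0.05) and Ifitm6 (-0.26) did not pass with the interferon-stimulated genes there. By rho, Ifitm6 did pass (-0.30, permutation adjusted p = 0.0281), and Ifitm1 and Ifitm2 did not. In tail skin Ifitm3 (r 0.48, rho 0.44) and Ifitm2 (r 0.43, rho 0.39) passed with the interferon-stimulated genes, and both had a higher r with endothelium (0.61 and 0.57). Whether any r of these differs from another was not tested.

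Ifitm6 had an opposite profile in non-anagen dorsal skin. Its r was -0.71 with the mean of 8 mast cell genes, -0.56 with 14 monocyte and macrophage genes, -0.55 with endothelium and -0.52 with fibroblast genes, against 0.56 with 8 keratinocyte genes and 0.64 with the 13 measured neighbours of the cluster (adjusted p = 0.000142 each, with rho between -0.71 and 0.67). Without the 2 farthest arrays these were between -0.69 and 0.64. In tail skin, where Ifitm6 lay close to the low end, r with the same lists was between -0.16 and 0.23 and none passed. The share of each cell type in the skin pieces was not measured.

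**Figure D5:**
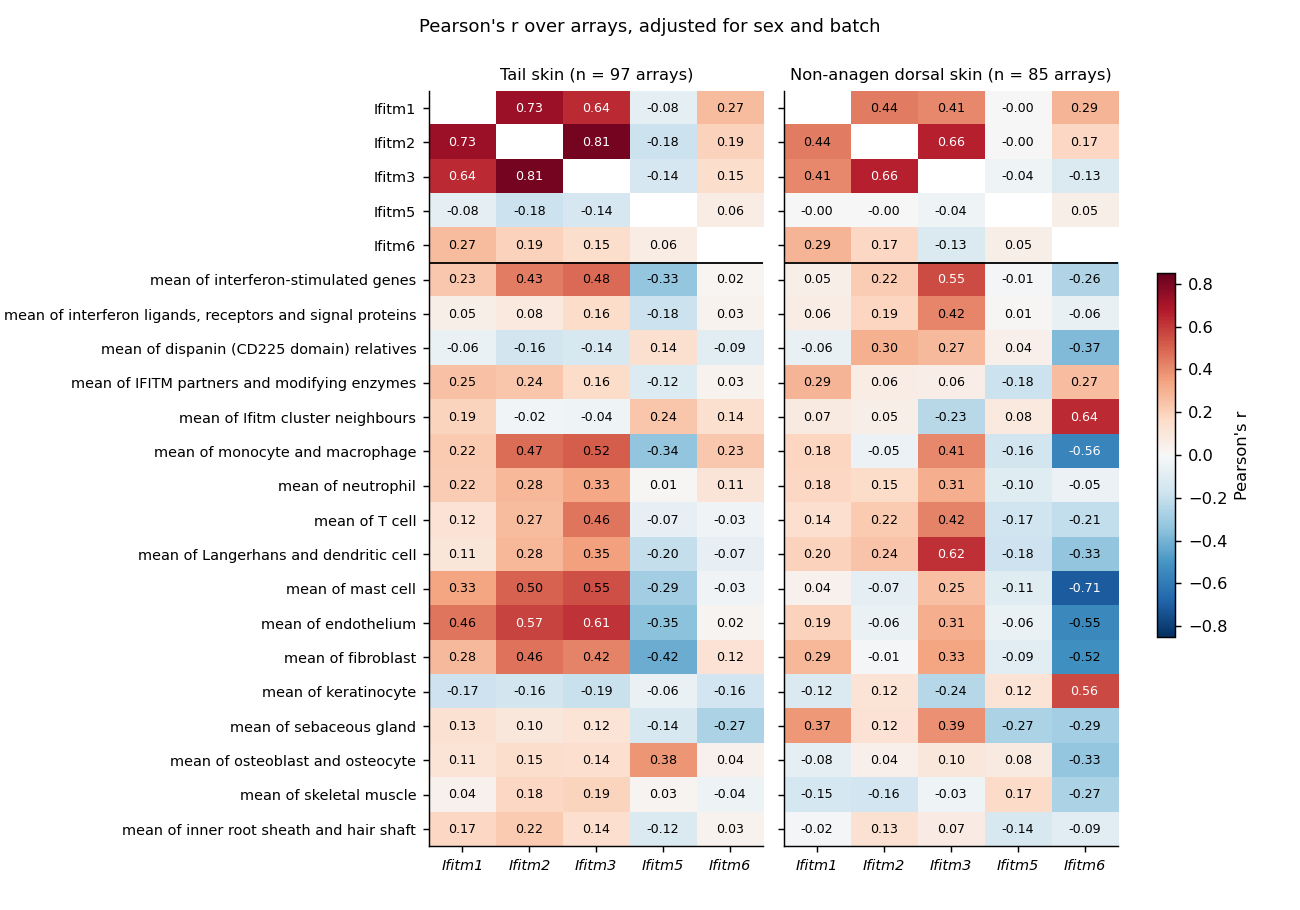
Pearson's r over arrays, adjusted for sex and batch, of each Ifitm gene (columns) with the other members and with the mean of each gene list (rows), in tail skin (97 arrays, left) and non-anagen dorsal skin (85 arrays, right), with red for positive and blue for negative values. Ifitm1, Ifitm2 and Ifitm3 form a red block in both tissues, and the Ifitm6 column ranges from -0.71 to 0.64 in dorsal skin.

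The wider pathway is given as counts against all genes. Between tail and non-anagen dorsal skin, 28 of 32 interferon-stimulated genes were called lower and 3 higher, with a median difference of -0.54, where 43.5% of all genes were called lower, and 8 of the 32 were lower by at least 2 times. The largest differences were those of Usp18 (-2.74), which removes the ubiquitin-like protein ISG15, Psmb8 (-2.21), a subunit of the immunoproteasome, Ifih1 (-1.78), a sensor of viral RNA, and Isg20 (-1.70), an exonuclease. The mean of Psmb8 was 5.27 in tail skin, 7.22 in anagen dorsal skin and 7.49 in non-anagen dorsal skin. Of 17 interferon ligands, receptors and signal proteins, 11 were called lower and 3 higher (median -0.31), among them the transcription factor Irf1 (-1.29), the keratinocyte interferon Ifnk (-0.80), the receptor chain Ifngr1 (-0.79) and Irf9 (-0.44). Cell type lists moved as well, with 8 of 9 T cell genes and 10 of 10 Langerhans and dendritic cell genes called lower in tail skin and 8 of 8 mast cell genes called higher. The lists that differed most were those of hair, with 12 of 12 genes called higher in tail skin (median 4.70) and list means between 6.69 and 11.6 in the tails, and of skeletal muscle, with 10 of 10 called lower (median -1.98). The part of these cell types in the Ifitm levels was not tested.

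Relatives and neighbours outside the run had calls in both directions, as did all genes, of which 43.8% were called higher and 43.5% lower. Of 7 other dispanins, the wider family that shares the membrane domain of IFITM proteins, 3 were called higher and 4 lower in tail than in non-anagen dorsal skin, led by Ifitm10 (0.76), Trarg1 (0.29), Tmem91 (-0.28) and Ifitm7 (-0.23). Of 8 proteins known to bind or modify IFITM proteins, 4 were called higher and 2 lower, led by the protease Zmpste24 (1.43), the palmitoyltransferase Zdhhc20 (0.66) and the tetraspanins Cd81 (0.44) and Cd9 (-0.29). The 13 measured neighbours of the run had 6 called higher and 5 lower and none by 2 times, from -0.56 for Pgghg to 0.58 for Ric8a, against -5.78 for Ifitm6. The signs of Bet1l, Odf3 and Sigirr among these neighbours turned under other scalings.

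In anagen against non-anagen dorsal skin these lists held few calls, as did all genes, of which 4.11% were called higher and 3.59% lower. Of 32 interferon-stimulated genes, 2 were called lower, Usp18 (-0.53) and Ifih1 (-0.35), and 0 higher, with a median difference of -0.07. Of 17 ligands, receptors and signal proteins 1, the kinase Jak1 (-0.17), was called lower. Of the 13 neighbours, 7 dispanins and 8 partners, limma called 0, and 2, 0 and 1 had an unadjusted p under 0.05. Without the 5 arrays least like their groups the calls of Usp18 (-0.38, adjusted p = 0.15), Ifih1 (-0.24, adjusted p = 0.248) and Jak1 (-0.08, adjusted p = 0.353) were lost. Of the cell type lists, 12 of 12 hair genes were called higher in anagen (median 3.71) and 3 of 8 keratinocyte genes lower (median -0.08), while 1 of 9 T cell genes was called lower and 1 of 8 mast cell genes and 1 of 8 osteoblast and osteocyte genes higher. The part of these cells in the Ifitm6 difference was not tested.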

How the data were processed

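RNA from tail and shaved dorsal skin was labelled with biotin and hybridised to mouse gene arrays. The deposited values are log2 expression per probe set after RMA, per the submitters' processing notes, while the RMA version and any batch adjustment are not given in the sources at hand. RMA includes quantile normalization, so a level is relative to the other genes of an array. The table held 35556 probe sets, of which 21218 named 1 gene, 1881 several and 12457 none. Only those naming 1 gene were used, through the platform annotation, and the probe set with the highest mean was kept for each of 18820 genes, with no filter on low values, so all 5 members were tested.

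For differences, limma 3.58.1 (lmFit, eBayes; R 4.3.3) was used and tested on simulated data, with sex and, within a tissue, batch as covariates, and Benjamini-Hochberg adjustment over all genes at a threshold of 0.05. Correlations used numpy 2.4.6 and scipy 1.17.1 under Python 3.11.15, tables pandas 2.3.3 and figures matplotlib 3.10.9. For the tail and dorsal correlations, adjusted p-values came from 100 random pairings of mice pooled over all genes, which replaced the adjustment over the members first planned.

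The members and lists were chosen with earlier results of these data known. Named genes were the members, the 5 genes most like each, the up to 4 members of a list with the largest differences, and the measured neighbours. The neighbours and genes along chromosome 7 are ordered by RefSeq (GRCm38.p6), and all 5 members matched a RefSeq promoter. Tail and dorsal arrays of one mouse number come from one animal. The main limma fits, with their SE and p-values, took these arrays as independent. Pairing entered only in the within-mouse differences, the fits with mouse as a random block and the tail with dorsal correlations. As a check of the mouse numbers, deviations of a mouse's tail and dorsal arrays from their group means had a median correlation of 0.17 over all genes in 82 mice. For other mice it was -0.0007, and 61 of 82 were above 0.1, with 23 tails correlating best with their own dorsal array. Alternatives covered scaling, probe sets, dim genes, batch, sex, mouse as a block and arrays left out, of which leaving out the 5 arrays least like their group or single anagen arrays was chosen after seeing the data.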

Additional observations from a re-analysis of the deposited data

Results flagged for a closer look

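Ifitm1 stood out because its sex difference was not the same in both tissues. The female minus male difference was 0.17 in tail skin and -0.33 in non-anagen dorsal skin, and the difference between them was 0.50 (SE 0.10, limma adjusted p = 0.000432 for the interaction over all genes).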

How the results depend on the processing

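Signal near the low end of the arrays limits Ifitm6 in tail skin and Ifitm5 throughout, 14 arrays limit the anagen comparison, and probe cross-binding among Ifitm1, Ifitm2 and Ifitm3 was not tested. The tail minus dorsal differences of Ifitm6, Ifitm1, Ifitm3 and Ifitm2 kept their sign under every alternative run, while that of Ifitm1 from anagen dorsal skin moved to -1.10 in males alone, against -0.66 in all arrays. The tail minus dorsal differences stay a description with no test. That of Ifitm6 from non-anagen dorsal skin was -5.78 with mouse as a random block and -5.76 within mice. In the interaction, the fit with mouse as a random block changed no call of a member, and Ifitm1 was at 0.50. In the anagen comparison, with 1 member called, 2 were called after quantile normalization, after the filter on dim genes and in females alone, and 0 in males alone and after leaving out the 5 arrays that least resemble their group. Leaving out single anagen arrays gave 0 to 3. In the sex comparison of dorsal skin, with 2 called, 1 was called after shifting medians, after quantile normalization, after the dim filter, which removes Ifitm5, and in batches 1 and 4 alone. For tail with dorsal correlations, with 0 called, 1 was called with unadjusted values, and for pairs of members, with 8 called, 4 were called in males alone. The cause of these changes was not tested.

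Signs turned in results close to 0, none of them called before or after except the neighbours below. In males alone the anagen difference was 0.056 for Ifitm3 and 0.11 for Ifitm5. The dorsal sex difference of Ifitm2 was -0.028 after shifting medians, -0.0019 over the mean of all probe sets and -0.0010 without the 5 arrays, and that of Ifitm3 was 0.032 in batches 1 and 4. Between tails by dorsal label, Ifitm2 was 0.015 after shifting medians and 0.030 in females, Ifitm1 0.013 without the 5 arrays, and Ifitm3 -0.069, Ifitm5 0.020 and Ifitm6 0.047 in males. Tail with dorsal r was 0.0031 for Ifitm5 with unadjusted values, 0.069 in males and 0.0026 with anagen mice added, and -0.0033 for Ifitm2 in females. For pairs with Ifitm5 in dorsal skin, r with Ifitm2 was 0.00082 with unadjusted values, 0.021 in batches 1 and 4 and 0.059 in females, r with Ifitm1 was 0.0052 after shifting medians and 0.082 in females, r with Ifitm3 was 0.0072 after shifting medians and 0.051 in males, and r with Ifitm6 was -0.0028 in males. In tail skin r of Ifitm5 was 0.0087 with Ifitm1 after shifting medians and -0.023 with Ifitm6 in females. Among the neighbours, tail minus non-anagen differences turned to 0.042 for Odf3, -0.15 for Bet1l and -0.014 for Sigirr after quantile normalization, and to -0.062 for Bet1l after shifting medians.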
